A study of Mus musculus with 11 samples.

Results

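Secreted, cytoplasmic and target genes of the Wnt pathway, 10 in all, were followed in epididymal white adipose tissue (eWAT) of mice with and without *Mest*, an imprinted gene that is transcribed from the paternal allele. They were chosen by gene symbol as listed modulators and targets of Wnt signaling (*Sfrp1*, *Sfrp2*, *Sfrp4*, *Sfrp5*, *Nkd1*, *Nkd2*, *Dkk2*, *Dkk3*, *Axin2* and *Wisp2*), and all 10 of the 10 listed were among the 15453 genes in the table of each mouse. Expression was read by SAGE (serial analysis of gene expression), where every polyadenylated transcript yields 1 short tag beside its last NlaIII site, on eWAT of 11 male mice, labelled C57BL/6 and given as C57BL/6J in the methods of the study, at 16 weeks of age. The mice were 6 wildtype (WT) animals and 5 that had inherited the inactivated *Mest* allele from the father (pKO), with exon 3 deleted in every tissue. Mice of both genotypes came from crosses of WT females with males carrying the inactivated allele and were fed high fat chow between week 8 and week 16. The mice were picked from a larger diet cohort whose genotypes also differed in fat mass, so effects of genotype and of fat mass cannot be told apart here.

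Wnt ligands bind Frizzled receptors with LRP5 or LRP6 as coreceptor, which stops the degradation of β-catenin and lets it switch on target genes with TCF factors. Secreted frizzled-related proteins (SFRP) bind Wnt ligands outside the cell, Dickkopf proteins (DKK) act at the coreceptor, Naked cuticle proteins (NKD) bind Dishevelled inside the cell, and AXIN2 is both a scaffold of the complex that degrades β-catenin and a transcriptional target of it. Wnt signaling is known to restrain adipogenesis, and the study followed *Sfrp5* and *Nkd1* because earlier work had linked their levels in fat with those of *Mest*.

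The sequences below are what the assay can read of each gene, the 27 bases that begin at the last NlaIII site of its RefSeq transcript, and they are shown because each value in the text is a count of such tags. Capitals mark the NlaIII site. Positions are on GRCm38 and each sequence is written in the direction of the transcript, from GENCODE models matched to RefSeq. The length of tag that the authors mapped was not given in the sources used here.
Sfrp1 (chr8:23449582-23449608, plus strand): CATGctttccctgccaatgtattcact
Sfrp2 (chr3:83774068-83774094, plus strand): CATGatgccctcaaataaaaagtgaat
Sfrp4 (chr13:19632788-19632814, plus strand): CATGtttttgataaaggcaggggaaat
Sfrp5 (chr19:42198249-42198275, minus strand): CATGcccctttgtgtgtcatcacagtc
Nkd1, longer transcript (chr8:88594786-88594812, plus strand): CATGcactgcaagtgaggtgctgtgcc
Nkd1, shorter transcript (chr8:88593500-88593526, plus strand): CATGgcattcattcagagagcatagca
Nkd2 (chr13:73818867-73818893, minus strand): CATGttctccagcacgtagccactctg
Dkk2 (chr3:132179959-132179985, plus strand): CATGtgtctgctagaacaaaactcata
Dkk3 (chr7:112116131-112116157, minus strand): CATGggagcgctatgtgctaagtcttc
Axin2 (chr11:108950654-108950680, plus strand): CATGgcagtttgttctactttagactg
Wisp2 (chr2:163833064-163833090, plus strand): CATGagagagacaaggaacagtagagt

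All 11 sites lie in the 3′ UTR of the last exon, and none of the sequences occurs in a GENCODE transcript of another gene. *Nkd1* has a pair of RefSeq transcripts with different last sites, so its value may join tags from both. The *Sfrp2* site overlaps *Gm26771* on the opposite strand. *Wisp2* is listed as *Ccn5* in GENCODE and was matched through its synonym, while the other 9 matched by symbol.

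WT libraries held 9659740 to 14825727 tags and pKO libraries 11320342 to 14626803, and no pair agreed within sampling noise. Values are given as normalized tags, meaning counts scaled by 1 factor per library, so that a single tag was worth 0.836 to 1.19 units. *Mest* averaged 25107 ± 2672 in the WT group and 1663 ± 566 in the pKO group (SD, n = 6 and n = 5), with no overlap, as the labels have it. The 10 adipocyte markers were all present and averaged at least 50 in one genotype, while 8 of 10 epididymis epithelium markers were missing from the tables and the other 2 summed to at most 43.8. Markers averaging at least 50 in one genotype were called at an unadjusted limma p of at most 0.05. Of all genes at that level, 10.6% were called. Among the other cell types, 5 of 8 mesothelium markers were called higher in pKO mice and 4 of 9 macrophage markers lower. Their median log2 fold changes, pKO minus WT, were 0.63 and -0.31. Levels summed over all listed markers in the tables were 1837 to 2580 in WT and 2674 to 4148 in pKO for mesothelium. For macrophages they were 5684 to 9368 in WT and 5122 to 7494 in pKO. The red blood cell markers *Hba-a1* and *Hba-a2*, 2 of 3, were called higher as well (list sum 382 to 969.9 in WT and 657 to 1659.8 in pKO). So were *Dcn* and *Dpp4*, 2 of 12 progenitor and fibroblast markers (list sum 57231 to 67074 in WT and 66936 to 77183 in pKO). The median log2 fold change of these 12 was only 0.033. *Kdr*, 1 of 7 endothelium markers, and *Slc2a4*, 1 of 10 adipocyte markers, were also called higher. The median log2 fold changes of these lists were 0.026 for endothelium and 0.13 for adipocytes. In bulk tissue fewer cells of a type and less RNA per cell cannot be told apart, and the part of these shifts in the differences given next was not tested.

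Between genotypes, the secreted protein gene *Wisp2* was lower in pKO mice by 2.10-fold, *Sfrp2* was higher by 1.65-fold and *Nkd1* was lower by 1.36-fold, as ratios of group means. Genes that averaged at least 50 in one genotype are called abundant here, which holds for 9 of the 10 members and 9906 genes, and *Dkk2* fell short of it. The 3 genes just named were the abundant members, 3 of 9, whose unadjusted p was at most 0.05 in limma on the log2(value + 1) scale. The same rule called 10.6% of abundant genes, 5.77% as lower and 4.85% as higher in pKO mice, and it also called 3 members in edgeR, where the background was 10%, and 3 in DESeq2, where it was 11.4%. After Benjamini-Hochberg adjustment over all 15453 genes, 0 members were at or below 0.1 in limma or in the quasi-likelihood test of edgeR. DESeq2 kept 1, *Wisp2*. It gave a p to 15427 genes and, by its own filter, adjusted over 13937 of them, so that 1516 of the 15453 had no adjusted p. Over all abundant genes, the adjusted rule called 0.0505% in limma and in edgeR and 1.22% in DESeq2. The values of pKO and WT mice overlapped in each of the 10 genes, against 1.43% of abundant genes whose ranges were apart. The median log2 fold change, pKO minus WT, was -0.10 for the 9 abundant members and 0.0086 for all abundant genes.

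**Figure D1:**
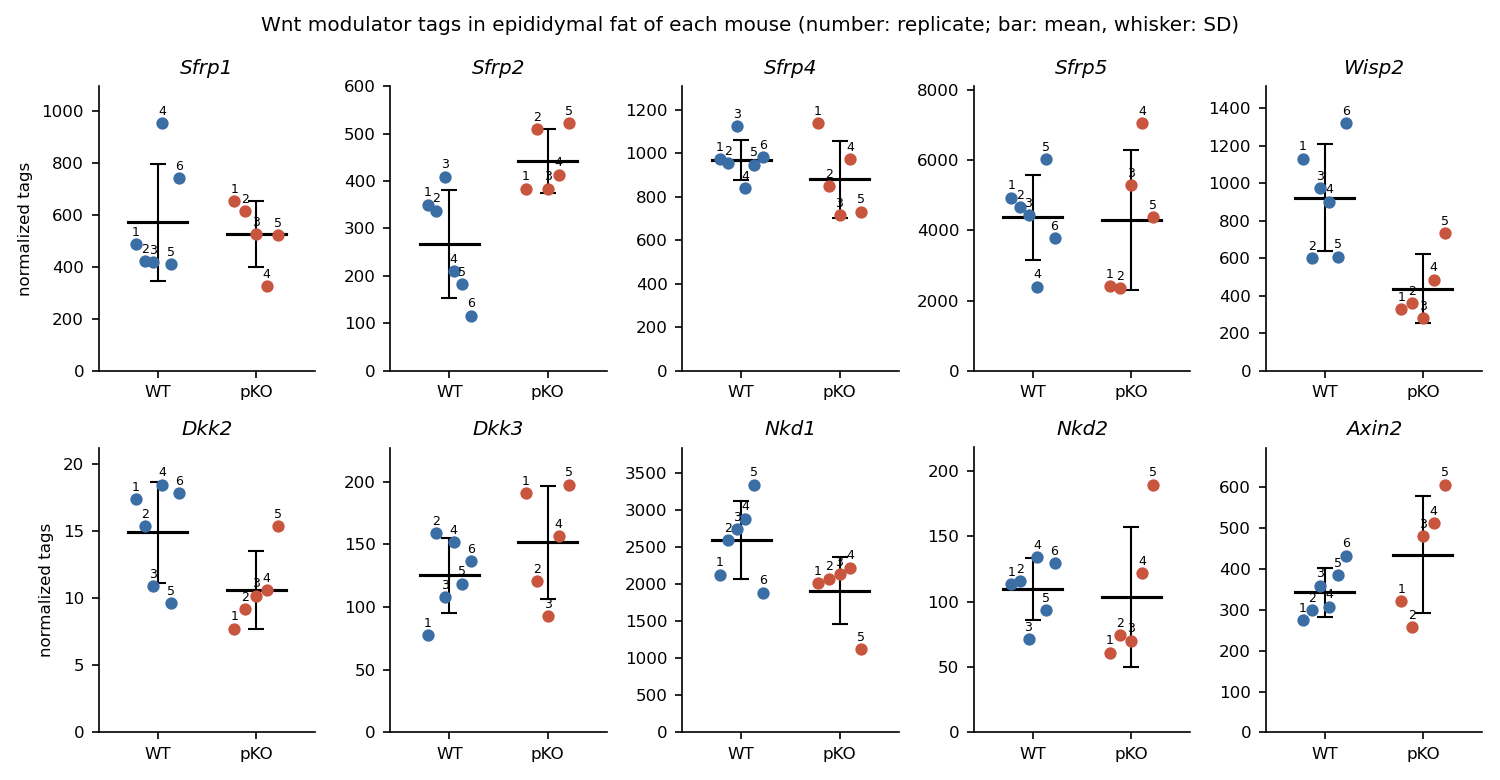
Normalized tags of the 10 Wnt modulator genes (vertical axes, linear and starting at 0) in each WT (blue, n = 6) and pKO mouse (red, n = 5), with replicate numbers beside the points, the mean as a bar and the SD as a whisker. *Wisp2* sits lower in pKO mice, where 4 of the 5 values are below the lowest WT value, and *Sfrp2* sits higher, while all 10 panels show overlapping genotypes.

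The SFRP genes, which encode decoys for Wnt ligands, spanned a wide range of levels and did not move as a group. *Sfrp2* had 116 (lowest), 274 (median) and 409 (highest) normalized tags in WT mice. In pKO mice it had 384, 509, 384, 413 and 522. All 5 pKO values exceeded the WT median and 3 were above the highest WT mouse. On the log2 scale the difference, pKO minus WT, was 0.84 (SE 0.28, 95% interval 0.23 to 1.44), with an unadjusted p of 0.0104 and an adjusted p of 0.39 in limma, and p = 0.028 in the exact permutation test, two-sided over the 462 ways to split the mice. Most of the spread lay in the WT group, whose coefficient of variation was 42.6% against 15.4% in pKO mice.

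*Sfrp5* was the most abundant of the 10 genes and the most variable within genotypes. WT mice ranged from 2396 to 6029 with a median of 4545, and pKO mice had 2412, 2359, 5282, 7053 and 4379. Both the highest and the lowest of the 11 values were thus in the pKO group. For *Sfrp5* the log2 fold change was -0.10 (95% interval -0.74 to 0.54, p = 0.74 in limma and 0.78 in the exact permutation test), an interval that leaves room for differences in either direction, and the estimate turned positive when WT 5, pKO 1 or pKO 2 was left out, to 0.0019, 0.073 and 0.082.

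*Sfrp1* was at 410.1 to 954 in WT mice with a median of 455, and at 653, 614, 526.1, 326 and 523 in pKO mice. WT 4 and WT 6 were the high WT mice, and 4 of the 5 pKO values lay above the WT median although the pKO mean was lower. Its log2 fold change was -0.07 (95% interval -0.60 to 0.46, p = 0.77 in limma and 0.81 in the exact permutation test), and it turned positive without WT 4, WT 6 or pKO 4, at 0.091, 0.018 and 0.092. *Sfrp4* was the steadiest member, at 838 to 1125 in WT mice (median 963) and 1137, 848, 715, 973 and 732 in pKO mice. The highest and the lowest values again both came from pKO mice, and the log2 fold change was -0.16 (95% interval -0.45 to 0.14, p = 0.28 in limma and 0.26 in the exact permutation test).

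*Wisp2* encodes a secreted CCN-family protein that lacks the C-terminal domain of its relatives and is known from preadipocytes as a Wnt-responsive gene. WT mice had 599.5 (lowest), 938 (median) and 1321 (highest) normalized tags. The pKO mice had 331, 361, 281, 487 and 735. Of these, 4 of 5 were below the lowest WT mouse, and only pKO 5 lay within the WT range. On the log2 scale the difference was -1.10 (SE 0.26, 95% interval -1.67 to -0.53), with an unadjusted p of 0.00104 in limma, rank 48 among the 9906 genes. The exact permutation test gave p = 0.013. The adjusted p was 0.27 in limma, 0.3 in edgeR and 0.031 in DESeq2 (0.034 when the DESeq2 p-values were adjusted over the 15427 genes that had one). It was the one member whose call after adjustment depended on the tool.

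The Dickkopf genes were the least abundant group together with *Nkd2*. *Dkk3*, the divergent member of the family, was at 77.7 to 159 in WT mice (median 128) and at 191, 120.3, 92.6, 156 and 197 in pKO mice, of which pKO 1 and pKO 5 exceeded every WT mouse. Its log2 fold change was 0.26 (95% interval -0.24 to 0.76, p = 0.29 in limma and 0.34 in the exact permutation test). *Dkk2*, which acts on the LRP coreceptors, rested on 8 to 19 tags per library, so that counting alone gives a coefficient of variation of 35.4% at the lowest count. It was at 9.65 to 18.5 in WT mice (median 16.4) and at 7.73, 9.17, 10.2, 10.6 and 15.3 in pKO mice. All 5 pKO values were below the WT median and 2 were below the lowest WT mouse. Its log2 fold change was -0.45 (95% interval -1.004 to 0.10, p = 0.103 in limma and 0.074 in the exact permutation test), which this depth could not separate from 0.

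Inside the cell, the Dishevelled-binding *Nkd1* was the second most abundant of the 10 genes. WT mice had 1885 (lowest), 2669 (median) and 3344 (highest) normalized tags. The pKO mice had 2016, 2077, 2134, 2224 and 1126. All 5 pKO values were below the WT median, 4 of them in a narrow band that also holds WT 1, and pKO 5 alone was below the lowest WT mouse. The log2 fold change was -0.45 (SE 0.20, 95% interval -0.88 to -0.03), with an unadjusted p of 0.036 and an adjusted p of 0.49 in limma and p = 0.045 in the exact permutation test. Without pKO 5 the log2 fold change was -0.27 and the unadjusted limma p was 0.103. The p also passed 0.05 without WT 2 (0.056), WT 3 (0.063), WT 4 (0.067) or WT 5 (0.082). In the larger diet cohort, the study used quantitative reverse transcription PCR (qRT-PCR). It found no significant change of *Nkd1* or *Sfrp5* in fat of pKO mice.

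*Nkd2*, its paralog, was present at far fewer tags, at 71.1 to 134 in WT mice (median 114) and at 61.0, 74.5, 70.2, 122 and 189 in pKO mice. The lowest and the highest mice were both pKO, and 3 of 5 pKO values were below the WT median. Its log2 fold change was -0.19 (95% interval -0.78 to 0.41, p = 0.52 in limma and 0.55 in the exact permutation test). *Axin2*, commonly read as a target gene of β-catenin, was at 275 to 433 in WT mice (median 334) and at 321, 258, 480.3, 512 and 607 in pKO mice. pKO 3, pKO 4 and pKO 5 were above every WT mouse while pKO 2 was below every one. A log2 fold change of 0.29 was estimated (95% interval -0.17 to 0.75, p = 0.19 in limma and 0.24 in the exact permutation test). Without pKO 2 it was 0.46 with an unadjusted p of 0.030.

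**Figure D2:**
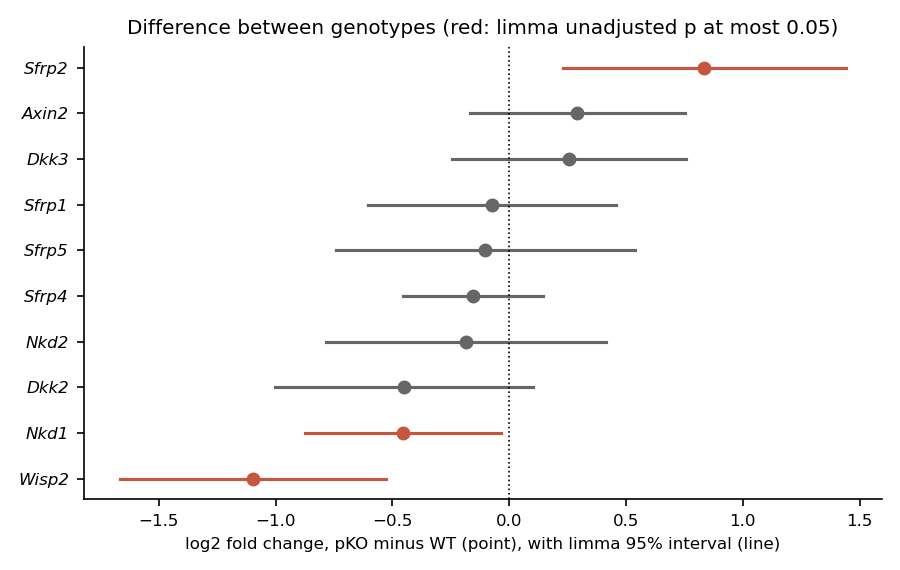
Log2 fold change of each gene, pKO minus WT (horizontal axis, points), with the 95% interval from limma (lines), ordered by size. *Wisp2*, *Nkd1* and *Sfrp2* (red) have intervals that leave out 0, at -1.10, -0.45 and 0.84, and the intervals of the other 7 genes (grey) include 0.

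Because SAGE yields 1 tag per transcript whatever its length, the levels could also be ordered between genes in normalized tags averaged over the 11 mice. Whether tags of different genes were recovered and mapped equally well was not tested, so the order is one of tags. *Sfrp5* (4337) was above *Nkd1* (2287) in 10 of 11 mice, and *Nkd1* was above *Sfrp4* (929) in 11 of 11. *Sfrp4*, *Wisp2* (703) and *Sfrp1* (552) were close, since each was above the next in 7 of 11 mice only. *Wisp2* was above *Sfrp1* in 5 of 6 WT mice (means 923 and 572) but in 2 of 5 pKO mice (439 and 528), so the order of their means differed between genotypes. *Sfrp1* was above *Axin2* (385) in 9 of 11 mice, and *Axin2* and *Sfrp2* (347) changed places, with *Axin2* higher in 6 of 11. Their means were 343 and 268 in WT mice and 436 and 442 in pKO mice. *Dkk3* (137) and *Nkd2* (107) followed, and *Dkk2* (13.0) was lowest in 11 of 11. The spread within genotypes, as an SD of log2 values, was above the median of abundant genes (0.30) in 9 of the 10 genes. It was 0.58 for *Sfrp5* and 0.21 for *Sfrp4*, the ends of the range.

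Covariation across mice was measured by removing each gene's genotype mean on the log2(value + 1) scale and correlating the remainders over the 11 mice. The p came from the exact permutation of mice within each genotype (86400 arrangements, two-sided) and was adjusted over the 45 pairs. Of these, 22 had a positive and 23 a negative r, with a median size of 0.243. In all, 6 pairs (13.3%) had an unadjusted p of at most 0.05, beside 8.49% of the relations of the 10 members with abundant genes, and 2 pairs had an adjusted p of at most 0.1.

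*Sfrp1* and *Sfrp5*, both extracellular decoys, ran opposite to each other. WT 4 had the highest *Sfrp1* (954) and the lowest WT *Sfrp5* (2396), and pKO 4 had the lowest *Sfrp1* (326) and the highest *Sfrp5* (7053). Pearson's r was -0.84 (p = 0.00064, adjusted p = 0.026, exact permutation test), and Spearman's rho was -0.79 (p = 0.0038, adjusted p = 0.085, exact permutation test). Without these 2 mice, which were the farthest from the median of *Sfrp1*, r was -0.60, and with each mouse left out in turn it stayed between -0.88 and -0.78. Among the 6 WT mice alone r was -0.90 (p = 0.018, adjusted p = 0.69, exact permutation test over 720 arrangements). For scale, 0.172% of abundant genes had an r with *Sfrp1* of at least this size, and 1.11% had one with *Sfrp5*.

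*Nkd2* and *Dkk2*, which are low in these libraries, ran together. Both were lowest in pKO 1 (61.0 and 7.73) and, among pKO mice, highest in pKO 5 (189 and 15.3). Pearson's r was 0.83 (p = 0.0011, adjusted p = 0.026, exact permutation test), and rho was 0.79 (p = 0.00059, adjusted p = 0.027, exact permutation test). Without pKO 1 and pKO 5, the mice farthest from the median of *Nkd2*, r was 0.72. The adjusted p rose to 0.11 without pKO 1 and to 0.14 without pKO 5. An r of this size was found with *Nkd2* in 1.3% of genes and with *Dkk2* in 0.394%. The few tags of *Dkk2* limit how closely its value in any 1 mouse is known. Its coefficient of variation was 25.3% in WT and 27.1% in pKO mice, against 35.4% from counting alone at its lowest count. Whether its spread between mice exceeds counting error was not tested, which limits all its relations given here.

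The other 4 pairs with an unadjusted p of at most 0.05 joined *Nkd1*, *Nkd2*, *Dkk2* and *Wisp2*. *Nkd1* and *Wisp2*, both lower in pKO mice, ran opposite to each other within genotypes, with r = -0.79 (p = 0.0093, adjusted p = 0.14, exact permutation test) and rho = -0.55 (p = 0.095, exact permutation test). pKO 5 had the lowest *Nkd1* (1126) and the highest pKO *Wisp2* (735), and WT 6 had the lowest WT *Nkd1* (1885) and the highest *Wisp2* (1321). Without these 2 mice r was -0.43, so that the relation rests largely on them. *Nkd1* and *Dkk2* had r = -0.73 (adjusted p = 0.29, exact permutation test), and *Wisp2* had r = 0.67 with *Nkd2* and 0.66 with *Dkk2* (adjusted p = 0.29 for each, exact permutation test). For the pairs of *Wisp2* with *Nkd2* and *Dkk2* such sizes were common, since 12% of abundant genes had one with *Nkd2* and 7.14% with *Wisp2* at the first size, and 7.82% with *Dkk2* and 7.99% with *Wisp2* at the second. The shares were 1.31% and 1.65% for *Nkd1* and *Wisp2*, and 3.73% and 3.44% for *Nkd1* and *Dkk2*. *Nkd1* and its paralog *Nkd2* had r = -0.64 (p = 0.065, adjusted p = 0.38, exact permutation test), and without WT 6 and pKO 5 r was -0.0047.

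**Figure D3:**
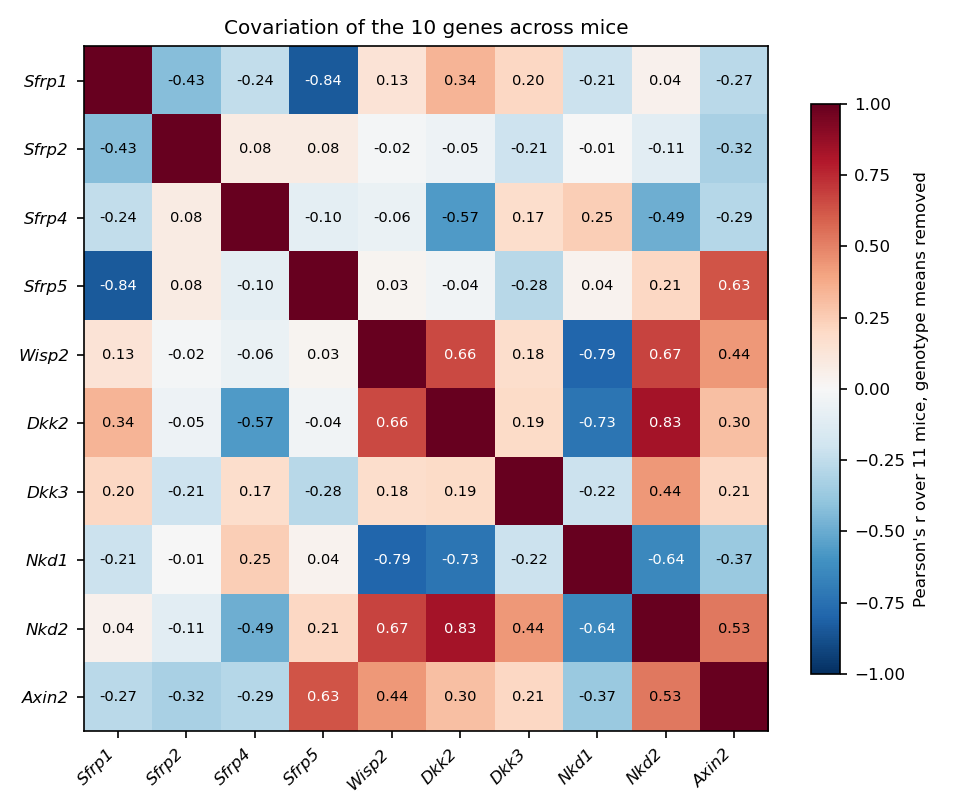
Pearson's r of each of the 45 pairs over the 11 mice after removal of the genotype means (color, from -1 in blue to 1 in red, with r written in each cell). The strongest negative cell is *Sfrp1* with *Sfrp5* (-0.84) and the strongest positive one is *Nkd2* with *Dkk2* (0.83), and *Nkd1* is negative with *Wisp2*, *Dkk2* and *Nkd2*.

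**Figure D4:**
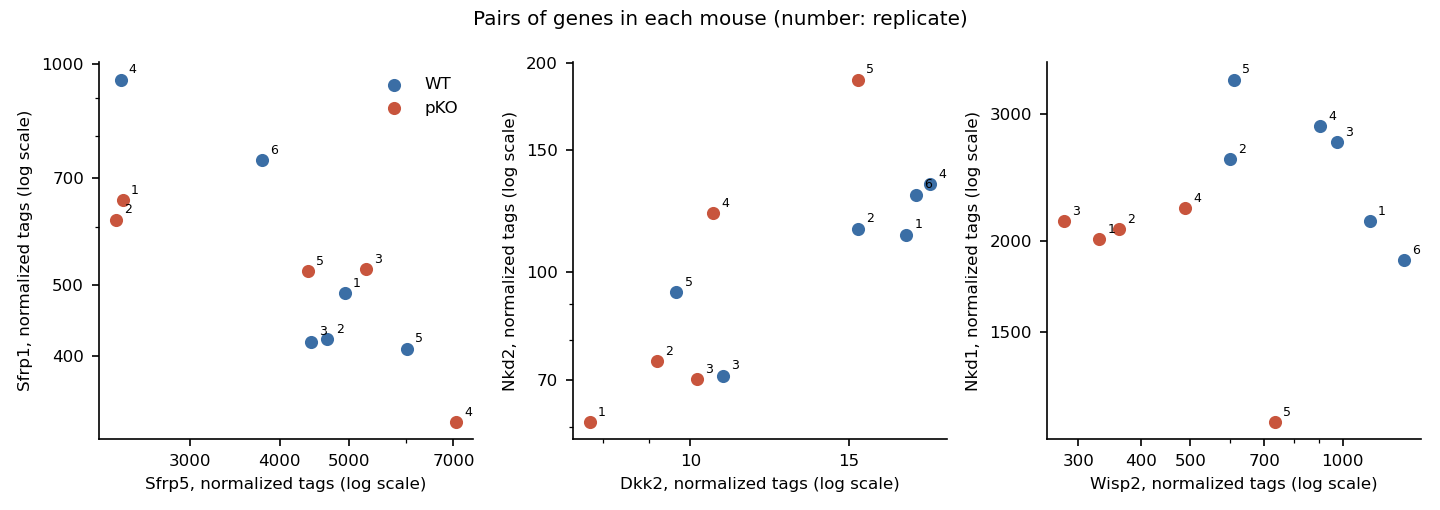
Normalized tags of *Sfrp1* against *Sfrp5*, *Nkd2* against *Dkk2* and *Nkd1* against *Wisp2* in each WT (blue, n = 6) and pKO mouse (red, n = 5), on log axes with replicate numbers. The left pair falls from WT 4 to pKO 4, the middle pair rises from pKO 1 to pKO 5, and in the right pair pKO 5 and WT 6 lie at the lower right of their genotypes.

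The question whether these genes follow *Mest* could be put to the 6 WT mice, whose *Mest* ranged from 20756 to 27897, while pKO mice carry the inactivated allele. The study put it by qRT-PCR to all WT mice of the larger diet cohort. There, *Sfrp5* and *Nkd1* were positively associated with *Mest* in eWAT. At an adjusted p of at most 0.1 over the 10 genes, 0 were correlated with *Mest* by the exact permutation test, and 1 had an unadjusted p of at most 0.05, beside 3.96% of abundant genes. That gene was *Nkd2*, with r = 0.80 (p = 0.046, adjusted p = 0.39, exact permutation test) and rho = 0.60 (p = 0.24, exact permutation test). *Sfrp5* had r = -0.25 (p = 0.62, exact permutation test) and rho = -0.20 (p = 0.71, exact permutation test). For *Nkd1*, r was -0.41 (p = 0.41, exact permutation test) and rho was -0.54 (p = 0.30, exact permutation test). *Sfrp2* had r = -0.72 and rho = -0.60 (p = 0.10 and p = 0.24, exact permutation test). The r was taken again over 4 mice, without WT 2 and WT 3, which were farthest from the median of *Mest*. It was 0.76 for *Nkd2*, -0.39 for *Sfrp5*, -0.93 for *Nkd1* and -0.35 for *Sfrp2*. The largest r over these 4 mice was that of *Wisp2*, at 0.97 against 0.37 in all 6 (p = 0.45, exact permutation test). *Dkk2* had 0.79 against 0.59 (p = 0.20 in all 6, exact permutation test). With a range of *Mest* this narrow and 6 mice, weaker relations could not be detected.

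For each member, the gene most like it across the 11 mice, by r after removal of genotype means among abundant genes, is given as a description. *Axin2* was closest to *Hmgn3* (r = 0.99) and *Scn7a* (0.99), and *Sfrp1* to *A930001N09Rik* (0.97). *Sfrp4* was closest to the mesothelium marker *Upk1b* (0.94), *Sfrp5* to *1110031I02Rik* (0.94) and *Agpat3* (0.94), and *Nkd1* to *Tubb4b* (0.93). *Wisp2* was closest to *Fblim1* (0.93) and *Pilrb1* (0.92), *Nkd2* to *Wwp1* (0.91), *Dkk2* to *Lin7c* (0.91), *Dkk3* to *Evi5* (0.90) and *Sfrp2* to *Maff* (0.87). The highest of many correlations is large by selection, so these values carry no p.

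The rest of the pathway was read from lists of 123 genes in all, of which 98 were in the tables and 64 were abundant. Of these 64, 4 were higher and 1 was lower in pKO mice at an unadjusted limma p of at most 0.05, beside the 10.6% of all abundant genes. A further 34 list genes were less abundant, and 8 of them had such a p, against 7.64% of the 5547 genes at that level. The receptor gene *Fzd4* averaged 1506 ± 89.0 in WT against 1791 ± 204 in pKO mice, a log2 difference of 0.24 (p = 0.041 in limma and 0.0065 in the exact permutation test). *Ctnnb1*, which encodes β-catenin, averaged 2239 ± 287 and 2707 ± 279, a log2 difference of 0.28 (p = 0.041 in limma and 0.030 in the exact permutation test). In the non-canonical branch, the planar polarity gene *Vangl1* and the calcium-dependent kinase gene *Camk2d* were higher, both with a log2 fold change of 0.38, and the GTPase gene *Rhoa* was lower, at -0.43. In the exact permutation test their p-values were 0.011, 0.076 and 0.039, so *Camk2d* did not reach 0.05 there. Their adjusted p-values lay at 0.49 to 0.52, and all ± values are SD with n = 6 and n = 5.

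By role, 0 of 3 Wnt ligands, 0 of 4 secretion and agonist genes, 1 of 11 receptors, 0 of 3 other extracellular and membrane inhibitors, 1 of 18 intracellular genes, 0 of 9 nuclear factors, 3 of 10 non-canonical genes and 0 of 6 other targets were called by limma at an unadjusted p of at most 0.05. Over all lists, edgeR called 6. The median log2 fold change over the 64 genes was 0.12 against 0.0086 for all abundant genes. The count of 5 was sensitive to single mice, from 1 without WT 1, WT 4 or WT 5 to 9 without pKO 2. It was 2 without WT 2 or WT 3, and 3 without pKO 3, pKO 4 or pKO 5.

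**Figure D5:**
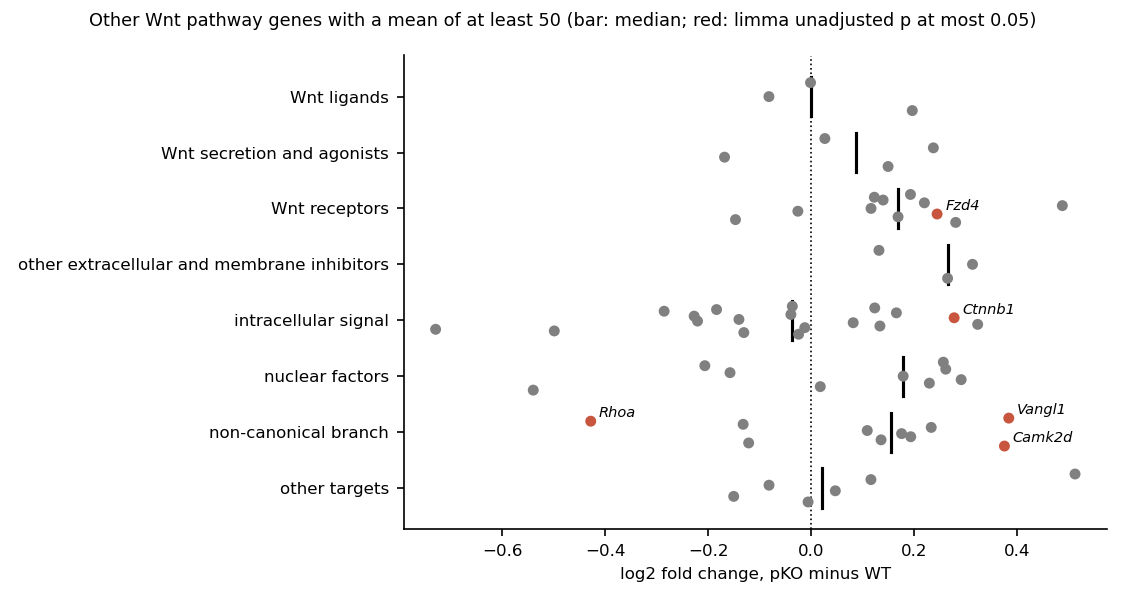
Log2 fold change, pKO minus WT (horizontal axis), of each of the 64 abundant other Wnt pathway genes, by role, with the list median as a bar. The 5 named genes in red have an unadjusted limma p of at most 0.05, and only *Rhoa* among them lies below 0.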

How the data were processed

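SAGE libraries of eWAT from 6 WT and 5 pKO mice, 1 per mouse, were analysed. The authors digested cDNA with NlaIII and EcoP15L, sequenced tags on a SOLiD instrument, mapped them with a modified SOLiD SAGE software and deposited 1 normalized signal per gene. The submitters' processing notes name mm10 and edgeR 3.2.3. The annotation and gene filter are not given in the sources used here. Each deposited signal was a whole multiple of 1 step per library (100% of 169983 values, tolerance 0.01), so whole tag counts were recovered for edgeR 4.0.16 and DESeq2 1.42.0. Coordinates are on GRCm38, the build that mm10 names.

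The main test was limma 3.58.1 in R 4.3.3, with a mean-variance trend, on log2(signal + 1) with genotype as the only term and Benjamini-Hochberg adjustment over 15453 genes. The scale understates changes of low genes. A gene was called at an unadjusted p of at most 0.05, or an adjusted p of at most 0.1, where either genotype averaged at least 50. Alternatives were pseudocounts of 0.5 and 10, total-count and TMM scaling, a filter before the fit, no trend, robust estimation, edgeR, DESeq2, a replicate block and leaving out each mouse. Exact permutation tests used all splits of the mice. Their smallest p was 0.0022. The tests were checked on simulated data.

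Named genes were the 10 members and *Mest*, list genes called at the unadjusted threshold, and the 3 genes most like each member, of which 1 or 2 are printed. The members and lists were chosen with earlier results of these data known. Counting error is the only error that depth bounds, and PCR copies were not removed by molecular identifiers. No library batch was given in the sources used here.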

Additional observations from a re-analysis of the deposited data

Results flagged for a closer look

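One value stood apart from its group. *Nkd1* in pKO 5 was at 1126 normalized tags, while the other 4 pKO mice lay between 2016 and 2224, a gap that exceeded Dixon's 95% critical value for 5 samples. With 22 groups of a gene and a genotype examined, 1.1 such values are to be reckoned with by chance. The same mouse had the highest pKO values of *Wisp2* (735), *Nkd2* (189), *Dkk2* (15.3), *Dkk3* (197), *Axin2* (607) and *Sfrp2* (522), and none of these was far enough from the others to stand apart by that rule.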

How the results depend on the processing

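*Wisp2* and *Sfrp2* kept their direction and an unadjusted p of at most 0.05 in all 22 fits, with log2 fold changes of -1.31 to -0.96 and 0.62 to 0.98, and adjusted p-values of 0.031 to 0.60 and 0.30 to 0.61. *Nkd1* kept its direction in all 22 fits (-0.54 to -0.27) and the unadjusted threshold in 16, and also lost it without the mean-variance trend (unadjusted limma p = 0.055, exact permutation p = 0.045 in all mice). The count of members at the unadjusted threshold stayed at 2 to 4. At an adjusted p of at most 0.1, DESeq2 called 1 member. *Sfrp1* reversed to 0.018 with the replicate block, 0.091 without WT 4, 0.018 without WT 6 and 0.092 without pKO 4, and *Sfrp5* to 0.0019 without WT 5, 0.073 without pKO 1 and 0.082 without pKO 2. With a mouse left out they spanned -0.16 to 0.092 and -0.31 to 0.082. *Dkk2* reached an unadjusted p of 0.047 without pKO 5 (log2 fold change -0.58, limma).

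Mice with the same replicate number did not deviate together (mean r of their deviations -0.024, from -0.092 to 0.14, against 0.0046 for different numbers). No pairing by number was thus seen, although 5 such pairs cannot exclude one. A fit with the replicate block, which drops WT 6, gave 1 gene lower and 0 higher at an adjusted p of at most 0.1 in limma, and 3 Wnt list genes. At that adjusted threshold, the main limma fit of all 11 mice gave 4 lower and 1 higher, which are not the counts of the study. DESeq2 gave 63 and 58, and the filter before the fit gave 8 lower. Leaving out a mouse gave 2 to 65 lower and 1 to 26 higher, both highest without pKO 2. For Wnt list genes, total-count scaling gave 2, no trend 1, and leaving out a mouse 1 to 9. Total-count scaling moved the split of genes at the unadjusted threshold from 572 lower and 480 higher to 737 and 330.

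Pairs of members at an adjusted p of at most 0.1 numbered 0 in WT mice alone and 1 to 3 with a mouse left out. At an unadjusted p of at most 0.05 they numbered 2 with Spearman's rho, 2 in WT mice alone and 2 to 7 with a mouse left out. The r with *Mest* reversed without WT 2 and WT 3 for *Sfrp4* (-0.65 to 0.30) and *Dkk3* (-0.030 to 0.085). The cause of these shifts was not tested. Depth limits *Dkk2* and the list genes under 50 tags.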

Other observations

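Below a mean of 50 in both genotypes, 34 further Wnt pathway genes were in the tables, and 8 of them (5 higher and 3 lower in pKO mice) had an unadjusted limma p of at most 0.05, against 7.64% of the 5547 genes at that level. They were singled out after their values were seen. *Wnt2b*, a ligand gene, had a median of 21.1 normalized tags in WT mice, from 16.4 to 30.7, and a median of 42.7 in pKO mice, from 39.9 to 45.01. The genotypes were apart, with a log2 fold change of 0.96 (SE 0.19, unadjusted p = 0.00017, adjusted p = 0.16, limma). *Fzd10*, a receptor gene, was at 0 to 3.56 in WT and 6.18 to 11.2 in pKO mice, also apart (unadjusted p = 0.00058, adjusted p = 0.25, limma), and rested on 52 tags over all libraries. *Fosl1*, listed as a target, was at 8.18 to 21.9 in WT and 0.883 to 16.0 in pKO mice (unadjusted p = 0.0032, limma). The others were *Wnt2*, *Wnt7b* and *Cer1*, with higher means in pKO mice, and *Wnt9a* and *Wif1*, with lower means.

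The members were also set against the cell type markers across the 11 mice, after removal of genotype means. Each list was scored by the mean log2(value + 1) of its abundant markers. The 70 relations were computed after the data had been seen. At an adjusted p of at most 0.1 there were 0. *Wisp2* ran with the macrophage markers (r = 0.82, p = 0.0037, adjusted p = 0.23, exact permutation test within genotypes) and with rho = 0.84, and r was 0.87 without the 2 mice farthest from the median. *Sfrp5* ran with the adipocyte markers (r = 0.82, p = 0.0073, adjusted p = 0.23, exact permutation test within genotypes), with rho = 0.76, and r was 0.74 without 2 mice. *Nkd2* ran with the red blood cell markers (r = 0.76, p = 0.010, adjusted p = 0.23, exact permutation test within genotypes), with rho = 0.78, and r was 0.63 without 2 mice. *Dkk2*, its partner in the covariation above, had r = 0.69 with the macrophage markers (p = 0.030, adjusted p = 0.48, exact permutation test within genotypes) and 0.44 without 2 mice. *Sfrp1*, which ran opposite to *Sfrp5*, had r = -0.66 with the adipocyte markers (p = 0.038, adjusted p = 0.48, exact permutation test within genotypes) and -0.47 without 2 mice. *Nkd1* had r = -0.78 with the smooth muscle and pericyte markers (p = 0.041, adjusted p = 0.48, exact permutation test within genotypes) and -0.0036 without 2 mice. These were all the relations of the 70 with an unadjusted p of at most 0.05, beside 8.49% of the members' relations with abundant genes. At an unadjusted limma p of at most 0.05, 4 of 9 macrophage markers were lower in pKO mice, as was *Wisp2*, beside 10.6% of abundant genes called. Their part in the *Wisp2* difference, and that of red blood cell markers in the covariation of *Nkd2*, was not tested.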
